A study of Mus musculus with 20 samples.

Results

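Gene expression in the healthy neonatal mouse brain was compared between postnatal day 5 and postnatal day 7. The comparison used 5 of the 20 libraries of the series, all made from total cytoplasmic RNA of control brains: 2 libraries at day 5 and 3 at day 7. Control animals were the phenotypically normal, heterozygous littermates (Smn-/+;SMN2tg/0) of mice with severe spinal muscular atrophy (SMA, Smn-/-;SMN2tg/0). Every control brain thus carried 1 functional Smn allele and the human SMN2 transgene. The strain was congenic FVB. Each library is labelled as coming from a control mouse brain, in the singular. Tissue was snap-frozen after removal, and the RNA was pooled from all fractions of a sucrose gradient. Day 5 and day 7 are the early- and late-symptomatic stages of the SMA littermates. Values were deposited as FPKM (fragments of a transcript, scaled to its length and to the mapped fragments of the library) for 45700 genes. The 13133 protein-coding nuclear genes with a mean of 1 FPKM or more over the 5 libraries and a value above 0 in each of them were tested; 15 genes that reached this mean were listed at 0 in at least 1 library and were left out.

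In the first postnatal weeks the rodent brain passes from making cells to connecting them. Division of neuronal precursors comes to an end in most regions while it continues in the cerebellum, synapses form in large numbers, receptor and channel subunits of the embryo are exchanged for those of the adult, astrocytes and microglia mature, and oligodendrocytes begin to wrap axons in myelin. A comparison at a distance of 2 days therefore asks which of these programs can be read from brain RNA over so short a time.

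The libraries themselves were examined first. FPKM summed over all genes was 997685 and 819603 at day 5 and 982934, 915327 and 877481 at day 7, and protein-coding nuclear genes made up between 46.3% and 55.6% of these sums. The 2 ages stood apart in composition. The highest single gene was Gm26377 at day 5 (14.3% and 13.8% of the sum). At day 7 it was Rpph1, Rmrp and Rpph1 (6.36%, 6.39% and 5.47%). Genes above 0 numbered 18194 and 18299 at day 5 and 17360, 17353 and 17464 at day 7. The neuronal gene Snap25 was high in all 5 libraries (216.91 and 221.73 FPKM at day 5; 355.71, 354.37 and 288.76 at day 7), as was the astrocyte gene Gfap (43.59 to 58.18 FPKM). The sexes were not balanced. Xist, expressed from the inactive X chromosome of females, measured 0.04 and 0.02 FPKM at day 5 and 9.22, 8.41 and 0.02 FPKM at day 7, and the Y-linked Eif2s3y measured 29.77, 32.07, 0.5, 0.08 and 28.14 FPKM in the same order. Both day 5 libraries and replicate 3 of day 7 thus came from males, and replicates 1 and 2 of day 7 from females. No label gives a date of collection, library preparation or sequencing, and the age of the mice and any difference in how the libraries of the 2 ages were made cannot be told apart in this design. The root mean square difference in log2(FPKM + 0.1) was 0.245 between the 2 day 5 libraries, 0.268 to 0.335 among the day 7 libraries, and 0.414 to 0.521 between libraries of different age.

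Of the 13133 genes, 4129 (31.4%) passed an adjusted p of 0.05 in limma, 2097 (16.0%) higher and 2032 (15.5%) lower at day 7. An unadjusted p of 0.05 was passed by 5989 genes (45.6%). Values of the 2 ages did not overlap for 8143 genes (62.0%). Most differences were small. The median absolute log2 change of the called genes was 0.48, and 260 of them differed by 1 or more on the log2 scale, 175 higher and 85 lower. The median over all tested genes was -0.04. In what follows, values are given in the order of the replicate numbers, those of day 5 before those of day 7, and changes are differences in log2(FPKM + 0.1). The count depended on the small number of libraries: without day 5 replicate 1 or 2 it was 1124 or 1018, without day 7 replicate 1 or 2 it was 2746 or 2731, and with sex as a covariate it was 1683. The shares of all genes called higher and lower were then 5.65% and 2.91% without day 5 replicate 1, 5.15% and 2.6% without day 5 replicate 2, and 7.98% and 4.84% with the covariate, and counts over most gene lists were lower too. Among the male libraries alone, day 7 is represented by replicate 3 only, so effect sizes and no calls are given for them. Both day 5 libraries are male, so the fit with sex as a covariate also takes its change with age from day 7 replicate 3. Its effect sizes are those of the male libraries alone, and its counts are to be read with this limit. A fit of these libraries blocked by replicate number does the reverse. Replicate 3 occurs at day 7 only and drops out, which leaves female day 7 against male day 5 libraries. A single gene compared by exact permutation of 2 against 3 libraries cannot go below p = 0.1 (two-sided), so the p-values below come from limma, which shares its estimate of spread across genes, with Benjamini-Hochberg adjustment. In brain RNA, fewer cells of a type and less RNA per cell cannot be told apart.

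**Figure D1:**
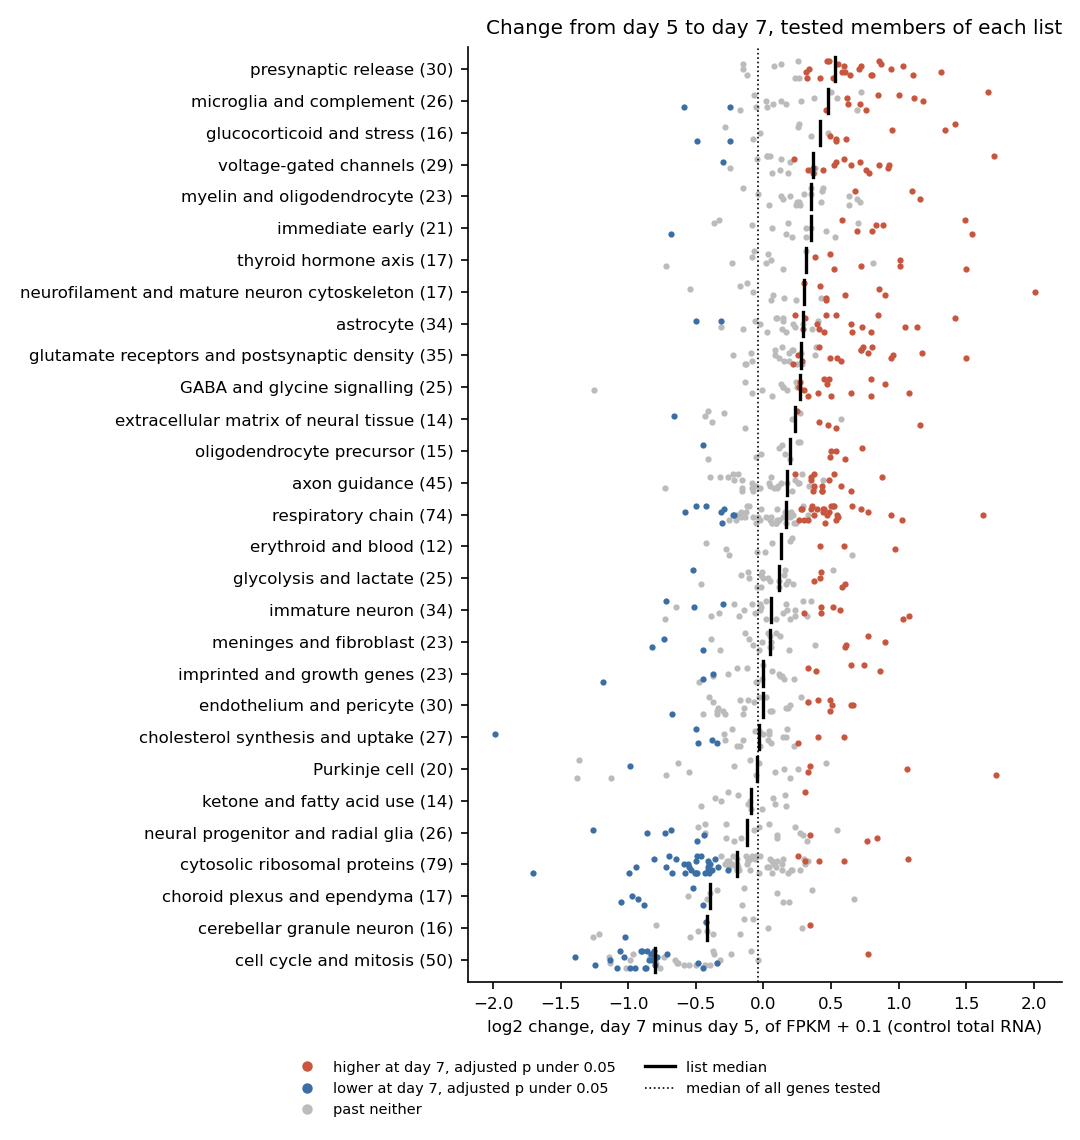
Log2 change from day 5 to day 7 of every tested member of 29 gene lists (x axis, log2 of FPKM + 0.1 in control total RNA; 1 row per list, with the number of tested members in brackets). Red and blue points passed an adjusted p of 0.05 in limma, higher and lower at day 7, grey points did not, black bars are list medians and the dotted line is the median of all tested genes (-0.04). Among the 29 lists shown, presynaptic genes lie furthest to the right (median 0.53) and cell cycle genes furthest to the left (median -0.80).

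Genes of the presynaptic terminal were higher at day 7 more often than any other list examined. These encode the vesicle proteins, the fusion machinery and the scaffold that together release transmitter. Of 30 members 22 rose and 0 fell (73.3% against 16.0% of all tested genes), with a list median of 0.53. Slc17a7 (VGLUT1, the vesicular glutamate transporter of cortical and cerebellar granule neurons; chr7:45163949-45176142, GRCm38) measured 37.22 and 37.76 FPKM at day 5 and 112.52, 97.57 and 74.18 FPKM at day 7. All 3 day 7 values lay above both day 5 values, with replicate 3 the lowest of them, and the log2 change was 1.31 ± 0.16 (SE; adjusted p = 0.0039). Vamp2 (synaptobrevin, the vesicle SNARE protein) went from 77.96 and 73.13 FPKM to 165.83, 175.19 and 149.23 FPKM, a log2 change of 1.11 (adjusted p = 0.0016). Syn1, a phosphoprotein that tethers vesicles, rose from 22.29 and 21.81 FPKM to 44.07, 50.84 and 41.11 FPKM, and Syt1, the calcium sensor of release, from 100.18 and 97.68 FPKM to 205.85, 207.76 and 161.63 FPKM. The log2 changes were 1.03 and 0.94, with no overlap between ages. The most abundant member, the vesicle glycoprotein gene Syp, rose less, by 0.31, from 350.13 and 359.6 FPKM to 453.79, 437.4 and 430.81 FPKM. The second vesicular glutamate transporter, Slc17a6 (VGLUT2, used mainly by subcortical neurons), did not pass the test (50.19 and 46.1 FPKM at day 5; 39.64, 45.1 and 48.11 FPKM at day 7; log2 change -0.12), nor did the vesicle protein gene Sv2c (-0.15). The inhibitory counterpart Slc32a1 was among the 22 that rose. Without day 5 replicate 1 or 2, 11 or 12 members rose, with sex as a covariate 16, and between the male libraries the list median was 0.39.

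On the receiving side, 16 of 35 tested genes of glutamate receptors and the postsynaptic density rose and 0 fell. That is 45.7% higher against 16.0% of all genes, with a list median of 0.27. Nrgn (neurogranin, a calmodulin-binding protein of dendritic spines) showed the largest change of the list, from 80 and 78.11 FPKM to 259.42, 247.45 and 175.74 FPKM, or 1.50 ± 0.16 on the log2 scale (SE; adjusted p = 0.0032). Camk2a, the calcium/calmodulin-dependent kinase of the density, went from 28.21 and 38.34 FPKM to 66.28, 64.24 and 59.87 FPKM (log2 change 0.94). Dlg4 (PSD-95, the main scaffold) was the most abundant member at 138.86 and 141.98 FPKM, and reached 253.21, 246.73 and 235.01 FPKM (log2 change 0.80). Each of these had separate ranges at the 2 ages. The count of the list was 10 or 8 without day 5 replicate 1 or 2, and 9 with sex as a covariate.

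NMDA receptors pair the obligatory subunit encoded by Grin1 with subunits whose proportions shift after birth, from Grin2b and Grin2d towards Grin2a and, in the cerebellum, Grin2c. Grin2a (chr16:9567898-9995560, GRCm38) measured 8.91 and 10.81 FPKM at day 5 and 24.16, 25.32 and 18.14 FPKM at day 7, a log2 change of 1.18 ± 0.16 (SE; adjusted p = 0.0050). Grin2b remained the more abundant subunit, a level comparison per length, at 68.65 and 53.72 FPKM and then 120.82, 93.09 and 89.83 FPKM, and it also rose, by 0.72. Grin1 rose by 0.96, from 23.28 and 22.11 FPKM to 49.16, 45.14 and 38.66 FPKM. The embryonic subunit Grin2d did not pass the test (6.25 and 4.42 FPKM against 7.15, 6.6 and 7.03 FPKM; log2 change 0.39, adjusted p = 0.094). Grin2c, the late cerebellar subunit, stayed under the level needed for testing, at 0.64 and 0.67 FPKM and then 1.04, 0.9 and 0.87 FPKM. Grin1, Grin2a and Grin2b thus rose side by side, and the early subunit Grin2b did not fall.

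Inhibitory signalling moved in the same direction, with 14 of 25 tested genes of GABA and glycine signalling higher and 0 lower. That is 56% higher against 16.0% of all genes, with a median of 0.27. The count was 7 or 6 without day 5 replicate 1 or 2, 9 without day 7 replicate 1 or 2, and 8 with sex as a covariate. GABA-A receptors of the newborn are rich in the alpha subunits encoded by Gabra2, Gabra3 and Gabra5. Gabra5 (0.47), Gabra2 (0.40) and Gabra3 (0.30) rose, and Gabra5 went from 39.64 and 36.8 FPKM to 56.8, 52.3 and 50.21 FPKM. Gabra6, the alpha subunit of mature cerebellar granule neurons, was barely measured at either age (0.09 and 0.24, then 0.06, 0.42 and 0.77 FPKM) and was not tested. The extrasynaptic subunit gene Gabrd showed the largest rise of the list, from 2.41 and 2.46 FPKM to 6.03, 5.52 and 4.34 FPKM (log2 change 1.08, adjusted p = 0.0060), and Gad2, which makes GABA, rose from 19.03 and 16.44 FPKM to 33.09, 31.82 and 27.65 FPKM (log2 change 0.80). The chloride exporter gene Slc12a5 (KCC2), whose protein lets GABA inhibit, rose from 49.47 and 46.84 FPKM to 67.46, 66.78 and 63.15 FPKM (log2 change 0.45 ± 0.07, SE; adjusted p = 0.0058). The chloride importer gene Slc12a2 (NKCC1), its counterpart of the immature neuron, did not pass the test (11.64 and 11.45, then 10.3, 10.83 and 10.33 FPKM; log2 change -0.14). The glycine receptor pair did not pass either: fetal Glra2 lay between 27.81 and 30.31 FPKM in all libraries, and adult Glra1, a gene of brainstem and spinal cord, lay between 0.8 and 3.3 FPKM with overlapping ages.

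Among voltage-gated channels, 16 of 29 rose and 1 fell (55.2% and 3.45% against 16.0% and 15.5% of all genes, median 0.37). When day 5 replicate 1 or 2 was left out, 5 or 8 rose. With sex as a covariate 7 rose and the median was 0.21. The gene that fell was Scn3a, the sodium channel of the embryonic brain, at 34.87 and 33.59 FPKM and then 27.84, 29.2 and 26.46 FPKM (log2 change -0.30, adjusted p = 0.023). The other pore-forming sodium channel genes were Scn2a1, which rose (71.98 and 74.66, then 104.37, 99.04 and 81.57 FPKM; 0.37), Scn8a (0.37, adjusted p = 0.078) and Scn1a (0.18, adjusted p = 0.28). Among accessory subunits Scn4b, at 0.72 and 0.75 FPKM and then 3.04, 2.93 and 2.04 FPKM, differed by 1.71 (adjusted p = 0.0039), and Scn2b rose by 0.85. The potassium channel gene Kcna1 rose from 3.07 and 3.62 FPKM to 6.3, 7.42 and 5.61 FPKM (0.92). For Slc17a7, Nrgn, Grin2a, Scn2a1 and Scn4b, replicate 3 of day 7, the male library, was the day 7 library nearest to day 5; with 1 such library, sex and difference between animals cannot be told apart.

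**Figure D2:**
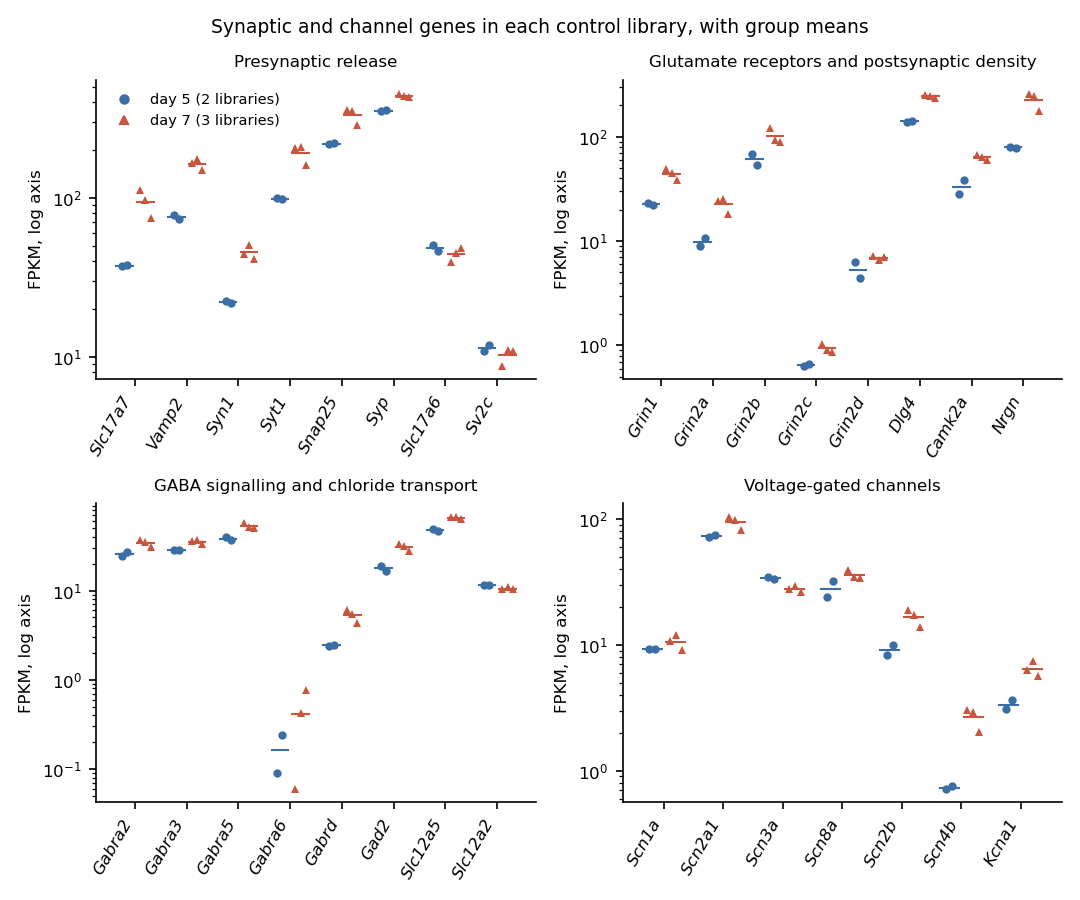
FPKM (y axis, log scale) of genes of presynaptic release, glutamate receptors and the postsynaptic density, GABA signalling with chloride transport, and voltage-gated channels in each control library (circles, 2 libraries of day 5; triangles, 3 of day 7; short lines are group means). Slc17a7, Grin2a and Scn4b lie higher in all 3 day 7 libraries than in either day 5 library, Scn3a lies lower, and Slc17a6, Slc12a2 and Scn1a change little.

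The cytoskeleton of neurons gave a mixed picture of growth and maturation. Of 17 tested genes of the mature cytoskeleton 8 rose and 0 fell (47.1% higher against 16.0% of all genes, median 0.30). Without either day 5 library 4 rose. Map1a, the dendritic microtubule-associated protein of the adult brain (chr2:121289600-121310832, GRCm38), measured 31.72 and 31.5 FPKM at day 5 and 129.2, 137.12 and 117.52 FPKM at day 7. Its log2 change of 2.01 ± 0.08 (SE; adjusted p = 0.00043) was, in absolute size, the largest among the list members that passed the test. Its embryonic relative Map1b rose less, from 153.56 and 143.57 FPKM to 277.97, 261.67 and 266.72 FPKM (0.86). Tubb4a, a tubulin of mature neurons and oligodendrocytes, rose by 0.90, and the neurofilament-associated Ina by 0.60.

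Markers of immature neurons did not move as a group: 7 of 34 rose and 3 fell (20.6% and 8.82% against 16.0% and 15.5% of all genes), and the median was 0.05. Without day 5 replicate 1 or 2 the counts were 4 and 3 higher and 1 lower, and with sex as a covariate 7 and 1; without day 7 replicate 3 they were 8 and 8. Doublecortin (Dcx), which marks migrating neurons, measured 102.12 and 115.08 FPKM at day 5 and 102.13, 97.59 and 123.09 FPKM at day 7, and the 95% interval of its log2 change ran from -0.29 to 0.26. The transcription factor genes Sox4 (-0.02) and Sox11 (-0.33) did not pass the test. The stathmins diverged. Stmn1, the stathmin of dividing and newborn cells, fell from 1143.4 and 1201.03 FPKM to 703.64, 647.23 and 793.03 FPKM (log2 change -0.72, adjusted p = 0.0053), whereas Stmn2 (SCG10), which acts in growing axons, rose from 748.11 and 643.72 FPKM to 1274.7, 1386.61 and 1632.77 FPKM (1.04, adjusted p = 0.0038). Ncam1 rose by 0.52 while St8sia2, which decorates it with polysialic acid, fell from 24.69 and 27.57 FPKM to 16.36, 16.57 and 22.26 FPKM (-0.52, adjusted p = 0.039).

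Axon guidance genes, the ligands and receptors that steer growth cones, rose in 14 of 45 cases and fell in 0 (31.1% against 16.0% of all genes; median 0.18). Without either day 5 library 3 of the 45 rose, a share close to that of all genes, with sex as a covariate 5 rose, and in a fit blocked by replicate number 14 rose and 3 fell. Ligand genes that rose included Slit3 (2.5 and 3, then 6.09, 5.42 and 4.04 FPKM; 0.88) and Sema3c (8.22 and 9.37, then 13.18, 12.58 and 13.54 FPKM; 0.57), and receptor genes included Robo2, the most abundant of the list (39.86 and 42.02, then 52.31, 56.06 and 57.79 FPKM; 0.43), and the netrin receptor Unc5a (0.52). In the extracellular matrix of neural tissue, 5 of 14 rose and 1 fell. The perineuronal net link protein Hapln1 went from 4.05 and 4.72 FPKM to 10.34, 11.39 and 8.22 FPKM (1.16, adjusted p = 0.0046), and the gene that fell was the hyaluronan synthase Has2 (-0.66). Without day 5 replicate 1, 3 of the 14 rose.

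Activity-regulated and hormone-regulated genes were also examined. Of 21 tested immediate early genes 7 rose and 1 fell (33.3% and 4.76% against 16.0% and 15.5% of all genes, median 0.35). Without day 5 replicate 2, 3 rose, and 4 rose with sex as a covariate. Egr1, a transcription factor induced by synaptic activity, measured 3.06 and 2.44 FPKM at day 5 and 8.59, 9.27 and 6.11 FPKM at day 7 (1.49 ± 0.20, SE; adjusted p = 0.0046), and Egr3 followed it (2 and 1.66, then 6.62, 6.25 and 4.04 FPKM; 1.55). Fos (0.46, adjusted p = 0.051) and Arc (0.53, adjusted p = 0.086) missed the threshold, and Btg2 fell (-0.68).

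Genes of the thyroid hormone axis rose in 7 of 17 cases and fell in 0 (median 0.31; background 16.0% higher). Without either day 5 library 1 of the 17 rose, a share close to that of all genes. Thyroid hormone is the main endocrine signal for brain maturation at this age. Dio2, which activates the hormone in astrocytes, measured 4.07 and 4.3 FPKM and then 10.13, 9.01 and 6.81 FPKM (1.01, adjusted p = 0.0084), the receptor gene Thrb rose from 4.16 and 4.1 FPKM to 8.11, 7.25 and 5.56 FPKM (0.72), and the hormone target Klf9 from 10.62 and 11.25 FPKM to 25.93, 24.1 and 17.44 FPKM (1.01). The more abundant receptor gene Thra did not pass the test (477.17 and 474.52, then 555.2, 503.33 and 521.37 FPKM; 0.15). Nrgn counts in this list as well as in that of the postsynaptic density.

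Of 16 glucocorticoid and stress genes 7 rose and 2 fell (43.75% and 12.5% against 16.0% and 15.5% of all genes, median 0.42). Without either day 5 library 3 rose and 0 fell, and with sex as a covariate 5 rose and 0 fell. The metallothionein Mt1 rose from 54.7 and 47.12 FPKM to 145.89, 136.24 and 126.04 FPKM (1.42 ± 0.09, SE; adjusted p = 0.0014), Fam107a from 1.44 and 1.36 FPKM to 4.07, 3.99 and 3.15 FPKM (1.35), and the clock gene Per1 by 0.95. The classical glucocorticoid targets Fkbp5 (-0.28, adjusted p = 0.15) and Sgk1 (0.25, adjusted p = 0.052) did not pass the test, and Tsc22d3 fell by 0.25.

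Genes of dividing cells moved in the opposite direction. Of 50 genes of the cell cycle and mitosis, 25 fell (background 15.5% of all tested genes) and 1 rose, the median log2 change was -0.80, and 49 of the 50 had a negative sign. The 1 gene that rose was H2afx, a histone variant of the DNA damage response that is made in non-dividing cells too (8.86 and 7.54, then 13.68, 14.91 and 13.55 FPKM). Cdc20, the activator of the anaphase-promoting complex (chr4:118432901-118437352, GRCm38), measured 7.5 and 8.99 FPKM at day 5 and 2.65, 2.69 and 4.01 FPKM at day 7, a log2 change of -1.40 ± 0.20 (SE; adjusted p = 0.0057). The mitotic kinase genes Aurkb (3.02 and 4.9, then 1.6, 1.12 and 2.12 FPKM; -1.25), Aurka (3.55 and 4.65, then 1.73, 1.45 and 2.58 FPKM; -1.08) and Cdk1 (14.35 and 23.15, then 6.28, 7.9 and 13.07 FPKM; -1.07) fell, as did the spindle assembly factor Tpx2 (-1.14). The mitotic cyclins Ccnb1 (-0.87) and Ccnb2 (-0.95) fell with them. In the replication machinery Mcm2 (4.44 and 5.23, then 1.9, 2.47 and 3.65 FPKM; -0.88) and the sliding clamp Pcna (35.71 and 43.39, then 29.86, 29.6 and 33.47 FPKM; -0.35) fell. H2afz, the most abundant member, fell from 407.14 and 452.85 FPKM to 228.12, 256.98 and 249.37 FPKM (-0.81, adjusted p = 0.0029).

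The mitotic genes differed within each age in the same order. Day 5 replicate 2 was above replicate 1, and day 7 replicate 3 above replicates 1 and 2, so that Mki67 (4.15 and 6.78, then 3.07, 4.21 and 5.24 FPKM) and Top2a (8.09 and 13.12, then 4.79, 6.65 and 9.06 FPKM) overlapped between ages and did not pass the test, at -0.37 and -0.63. The summed Hox genes, caudal markers described below, had this order too (2.83 and 12.52, then 0.32, 2.07 and 8.95 FPKM). The part of caudal tissue in the fall was not tested. The count of the list rested on the libraries used and on the filter. With no filter on low values 4 of the 50 fell, where 7.34% of all genes were lower. The count was 4 without day 5 replicate 1 and 1 without day 5 replicate 2. It was 10 and 7 without day 7 replicate 1 and 2, and 38 without day 7 replicate 3. With sex as a covariate 2 members fell and 1 rose, and the share that fell was then no higher than the 4.84% of all genes; nor was it higher than that of all genes without day 5 replicate 2. In a fit blocked by replicate number 41 fell. That fit takes day 7 replicate 3 out of the change with age, and its median of -0.94 was the same as without this library. Between the male libraries the median was -0.38.

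**Figure D3:**
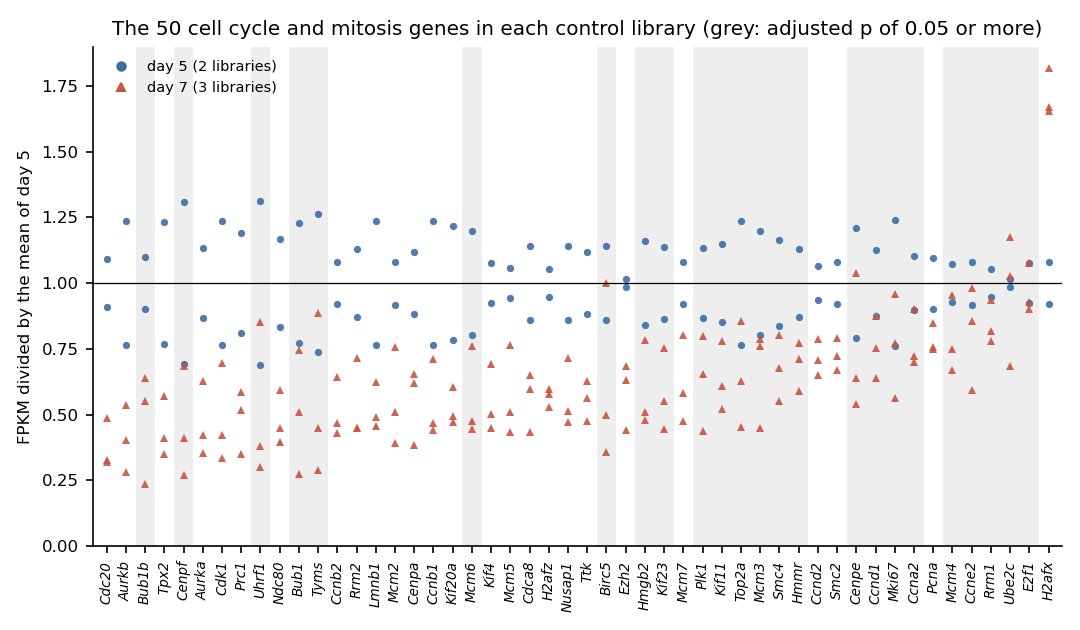
FPKM of the 50 cell cycle and mitosis genes in each control library divided by the mean of the 2 day 5 libraries (y axis), ordered by log2 change (circles, day 5; triangles, 3 libraries of day 7; grey columns, genes with an adjusted p of 0.05 or more). Day 7 values lie below 1 for most genes, H2afx at the right edge lies above 1, and Mki67 and Top2a, whose ages overlap, are among the grey columns.

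Of 55 tested histone genes of the replication clusters, a group chosen after their values were seen, 19 fell (background 15.5%) and 3 rose, with a median of -0.50. The classes were unlike. All 5 linker histone H1 genes fell (median -1.31), as did 6 of 11 H3 and 4 of 12 H4 genes, but 2 of 12 H2A and 2 of 15 H2B genes, close to the background. The 3 that rose were 1 each of H2B, H3 and H4. These transcripts are made in S phase and mostly lack a poly(A) tail. Hist1h1b measured 91.94 and 138.14 FPKM at day 5 and 15.85, 24.64 and 41.8 FPKM at day 7 (-2.15), and Hist1h3b 21.93 and 30.58 FPKM and then 1.57, 3.03 and 3.17 FPKM (-3.34). Hist2h3b (15.28 and 12.26, then 0.16, 1.08 and 0.39 FPKM; -4.70) had the largest fall of the called genes with a mean of 5 FPKM or more and separate ages. Histone genes are near-identical copies, so reads may be split between them, and the value of a single copy is uncertain.

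Genes of the cell cycle are known to share promoter elements that couple them to division, and the promoters of the members that fell were read for 3 of these: the CCAAT box (CCAAT), the cell cycle homology region, CHR (TTTGAA), and the E2F site (TTTCCCGC, TTTCGCGC, TTTGCCGC or TTTGGCGC), each on both strands. The 250 bases before the start site of 19 of the 25 genes were found in RefSeq (GRCm38.p6). A CCAAT box was present in 17 of the 19 (89.5%), against 36.3% of the promoters of 9911 tested genes and 34.5% of all 27025 promoters of the table. The CHR letters were present in 26.3% against 9.73% of tested genes and 16.3% of all, and an E2F site in 15.8% against 3.30% and 1.91%. These shares were not particular to the members that fell: of the 38 promoters found for the whole cell cycle list, 33 (86.8%) held a CCAAT box, 26.3% the CHR letters and 10.5% an E2F site. A match of letters is a description of the sequence and not evidence of binding. The promoters of 4 genes are shown to let the arrangement be seen, each 250 bases from 5′ to 3′ on the gene's own strand, ending at the base before the start site, with motif matches in capitals; ATTGG is CCAAT on the other strand. They lie at chr4:118437344-118437593 (minus strand, Cdc20), chr2:172370571-172370820 (minus strand, Aurka), chr10:69352913-69353162 (minus strand, Cdk1) and chr9:70421555-70421804 (minus strand, Ccnb2).
Cdc20: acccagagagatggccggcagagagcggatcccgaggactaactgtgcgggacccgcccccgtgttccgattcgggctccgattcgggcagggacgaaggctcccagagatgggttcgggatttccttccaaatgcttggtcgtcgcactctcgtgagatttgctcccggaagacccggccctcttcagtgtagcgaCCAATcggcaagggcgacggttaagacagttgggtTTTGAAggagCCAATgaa
Aurka: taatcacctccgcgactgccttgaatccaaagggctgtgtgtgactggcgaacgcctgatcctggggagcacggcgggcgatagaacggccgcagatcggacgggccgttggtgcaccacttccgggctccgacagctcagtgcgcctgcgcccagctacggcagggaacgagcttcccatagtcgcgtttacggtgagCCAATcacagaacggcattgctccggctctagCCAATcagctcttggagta
Cdk1: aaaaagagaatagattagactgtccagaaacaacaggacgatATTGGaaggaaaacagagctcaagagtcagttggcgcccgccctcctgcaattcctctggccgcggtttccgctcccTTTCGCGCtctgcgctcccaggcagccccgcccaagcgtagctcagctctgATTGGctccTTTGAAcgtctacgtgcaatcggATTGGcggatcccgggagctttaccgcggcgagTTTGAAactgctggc
Ccnb2: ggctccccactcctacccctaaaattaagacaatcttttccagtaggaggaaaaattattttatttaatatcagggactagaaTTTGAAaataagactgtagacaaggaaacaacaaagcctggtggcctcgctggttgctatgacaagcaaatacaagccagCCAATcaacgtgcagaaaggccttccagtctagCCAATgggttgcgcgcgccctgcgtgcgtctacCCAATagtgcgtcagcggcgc
The Cdc20 promoter holds 2 CCAAT boxes around a CHR close to the start site, that of Aurka 2 CCAAT boxes, that of Cdk1 3 CCAAT boxes, 2 CHR elements and 1 E2F site, and that of Ccnb2 3 CCAAT boxes with 1 CHR further from the start.

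Neural progenitors and radial glia, the stem cells of the developing brain, were represented by 26 tested genes, of which 6 fell and 3 rose (23.1% lower against 15.5% of all genes, 11.5% higher against 16.0%; median -0.12). Without either day 5 library 1 fell and 0 rose, and with sex as a covariate 2 fell and 4 rose, so the balance of the list turned. Changes of the list ran from -1.27 to 0.84, with 11 members positive and 15 negative. The members named below are all among the 6 that fell, and the 3 that rose are not named here. Vim (vimentin, the intermediate filament of radial glia) fell from 104.72 and 113.46 FPKM to 35.84, 41.15 and 62.88 FPKM (-1.27 ± 0.22, SE; adjusted p = 0.0094). Nestin (Nes) fell from 4.59 and 4.65 FPKM to 2.15, 2.1 and 3.42 FPKM (-0.86), and Fabp7, the most abundant member, from 1416.35 and 1405.53 FPKM to 921.84, 924.34 and 1185.94 FPKM (-0.49). Tead2, a transcription factor of the Hippo pathway that is active in neural progenitors, was outside the list and fell from 24.51 and 30.81 FPKM to 5.4, 7.45 and 6.49 FPKM (-2.09, adjusted p = 0.0016).

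The cerebellum was followed through granule neurons, its late-dividing cells, and Purkinje cells. Of 16 tested granule neuron genes 2 fell and 1 rose (12.5% lower against 15.5% of all genes; median -0.42); 0 fell without either day 5 library or with sex as a covariate, 1 without day 7 replicate 2 and 7 without day 7 replicate 3. Zic4 measured 19.79 and 23.96 FPKM and then 7.37, 10.9 and 15.06 FPKM (-1.02, adjusted p = 0.033 in limma). Its overlapping neighbour Zic1 may share reads with it. The list median was 0.15 when the male libraries alone were compared, so its sign depended on the 2 female libraries. Of 20 Purkinje cell genes 4 rose and 1 fell (20.0% and 5% against 16.0% and 15.5% of all genes; median -0.05), 2 rose without either day 5 library or day 7 replicate 1 or with sex as a covariate, and 6 fell without day 7 replicate 3. Pcp4, the most abundant, rose from 268.8 and 259.31 FPKM to 357.17, 339.53 and 303.44 FPKM (0.33), but Cck, which rose by 1.07, is expressed mainly by forebrain neurons at this age.

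Astrocyte genes rose in 16 of 34 cases and fell in 2 (47.1% and 5.88% against 16.0% and 15.5% of all genes, median 0.29). They rose in 5 or 9 cases when day 5 replicate 1 or 2 was left out. With sex as a covariate 6 rose and 0 fell. The glutamate transporter Slc1a2 (GLT-1) went from 74.09 and 86.78 FPKM to 159.19, 161.13 and 116.88 FPKM (0.85, adjusted p = 0.011), the adhesion protein gene Hepacam from 7.06 and 7.17 FPKM to 14.5, 16.03 and 16.77 FPKM (1.13), and the gap junction gene Gja1 rose by 0.46. General astrocyte markers did not pass the test: Gfap (0.10), Aqp4 (0.10) and the early glutamate transporter Slc1a3 (0.03) had overlapping ages. Apoe, the most abundant member, fell from 1071.07 and 1133.98 FPKM to 722.92, 806.05 and 808.65 FPKM (-0.50, adjusted p = 0.0084).

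Microglia, the resident macrophages of the brain, showed a median change of 0.48, with 10 of 26 genes higher and 2 lower. These shares are 38.5% and 7.69% against 16.0% and 15.5% of all genes. The median depended on genes of low level: over the 16 genes with a mean of 5 FPKM or more it was 0.10, with 6 higher and 2 lower. Without day 5 replicate 1, 6 of the 26 rose, and with sex as a covariate 9 rose and 0 fell. P2ry12, the purinergic receptor that guides microglial processes, measured 9.85 and 11.2 FPKM at day 5 and 24.43, 25.28 and 19.25 FPKM at day 7 (1.11 ± 0.13, SE; adjusted p = 0.0038), and Tmem119 (0.71) and the fractalkine receptor Cx3cr1 (0.63) rose too. Selplg, a selectin ligand, rose from 1.32 and 1.82 FPKM to 4.88, 5.84 and 4.76 FPKM (1.67), and the Fc receptor chain gene Fcer1g from 3.97 and 3.12 FPKM to 8.05, 7.94 and 8.39 FPKM (1.18). The complement gene C1qa fell (17.03 and 18.17, then 14.63, 14.9 and 14.79 FPKM; -0.25), and C1qb did not pass the test (0.07).

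Oligodendrocyte precursor genes rose in 5 of 15 cases and fell in 1 (33.3% higher against 16.0% of all genes; median 0.19); 1 or 2 rose without day 5 replicate 1 or 2, 3 without day 7 replicate 2, and 2 with sex as a covariate. Gpr17, which marks precursors committed to differentiate, rose from 21 and 24.82 FPKM to 30.52, 34.77 and 31.79 FPKM (0.50, adjusted p = 0.013), and the lineage factor gene Sox10 from 2.6 and 2.81 FPKM to 4.14, 4.89 and 4.62 FPKM (0.73), while the precursor receptor gene Pdgfra did not pass the test (23.24 and 24.95, then 25.41, 24.31 and 21.79 FPKM; -0.02).

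Myelin genes varied widely between libraries of 1 age. Of 23 tested genes 3 rose (background 16.0% of all genes) and 0 fell, although 21 of the 23 had a positive sign and the median was 0.35. Without day 7 replicate 1, 7 rose, and 1 rose without day 5 replicate 1, day 7 replicate 2 or day 7 replicate 3, and with sex as a covariate. The list median was 0.13 without day 5 replicate 1, 0.16 without day 7 replicate 2 and 0.70 without day 7 replicate 1. Mbp, a major protein of compact myelin (chr18:82475146-82585637, GRCm38), measured 76.83 and 133.38 FPKM at day 5 and 68.08, 172.3 and 183.81 FPKM at day 7. Day 7 replicate 1 thus lay below both day 5 libraries and the other day 7 libraries above them, and the log2 change of 0.35 had a 95% interval from -0.73 to 1.44. Mag (7.01 and 10.76, then 5.55, 23.49 and 21.37 FPKM) and Mog (2.71 and 3.75, then 2, 6.78 and 6.04 FPKM) had the same pattern, with day 5 replicate 1 and day 7 replicate 1 low, and Mobp (0.43) and Cnp (0.13) did not pass the test either. The list summed to 306.79 and 437.12 FPKM at day 5 and 309.45, 589.24 and 580.84 FPKM at day 7, and none of its 28 members was listed at 0 in all libraries. The genes that rose were Fa2h, Tmem88b and Omg, the last of which overlaps Nf1 and is also made by neurons (13.93 and 15.12, then 36.8, 34.68 and 27.09 FPKM; 1.16).

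A set of genes that mark the caudal end of the neural tube was lowest, at each age, in the library with the least myelin RNA. Hox genes, which are expressed from the hindbrain downwards and not in the forebrain, were summed after their values were seen. The 39 genes, 38 of them above 0 in some library, summed to 2.83 and 12.52 FPKM at day 5 and 0.32, 2.07 and 8.95 FPKM at day 7. The glycine transporter gene Slc6a5, of brainstem and spinal cord neurons, measured 1.98, 3.05, 0.13, 1.67 and 2.91 FPKM in the same order. Libraries with the least myelin RNA at each age also had the least Hox RNA: replicate 1 at day 5 and replicate 1 at day 7. Day 7 replicates 2 and 3 had similar myelin sums (589.24 and 580.84 FPKM) but unlike Hox sums (2.07 and 8.95 FPKM). How much hindbrain each dissected brain included is not recorded in the labels, and the part of these differences in the results was not tested. Among the day 7 libraries the order of Slc17a7 (112.52, 97.57 and 74.18 FPKM) was the reverse of that of the Hox sum. Within each age the summed cell cycle list (783.38 and 943.16, then 468.89, 519.73 and 590.41 FPKM) followed the order of the Hox sum.

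**Figure D4:**
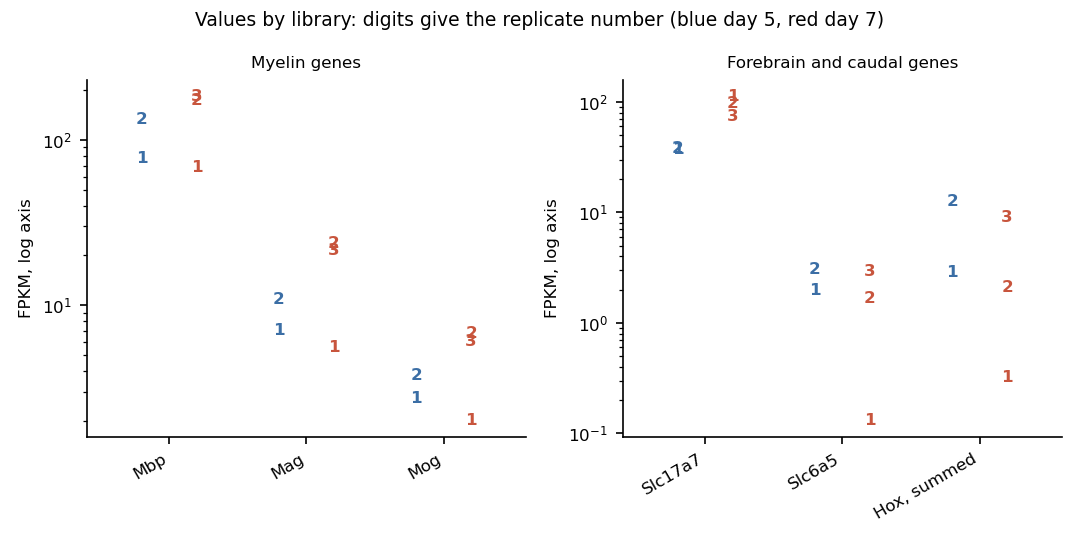
FPKM (y axis, log scale) of 3 myelin genes (left panel) and of the forebrain gene Slc17a7, the caudal gene Slc6a5 and the summed Hox genes (right panel) in each control library; digits give the replicate number, blue for day 5 and red for day 7. Replicate 1 of each age is the lowest of its age for all 3 myelin genes and for Slc6a5, and day 7 replicate 1 is the lowest library for the Hox sum (0.32 FPKM).

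Of 30 endothelial and pericyte genes, which mark blood vessels, 7 rose and 1 fell (23.3% higher against 16.0% of all genes; median -0.01). Those that rose included Bsg, a surface protein of endothelial and other cells (259.54 and 257.65, then 365.89, 361.98 and 363.07 FPKM; 0.49), the transforming growth factor co-receptor Eng (3.91 and 3.9, then 5.9, 7.1 and 5.79 FPKM; 0.66), Ly6c1 (8.4 and 8.19, then 11.81, 12.18 and 11.52 FPKM; 0.51) and the organic anion transporter Slco1a4 (1.34 and 1.17, then 1.76, 2.15 and 2.16 FPKM; 0.65). The ages were separate for each. The list had 2 or 1 higher without day 5 replicate 1 or 2, 4 without day 7 replicate 2 or with sex as a covariate, 6 lower without day 7 replicate 3, and 5 higher and 7 lower in a fit blocked by replicate number. The gene that fell was the tight junction gene Cldn5 (52.92 and 43.76, then 25.96, 30.1 and 34.46 FPKM; -0.68), and the pan-endothelial Pecam1 did not pass the test (-0.34). Of 23 meningeal and fibroblast genes 4 rose and 3 fell (17.4% and 13%, close to the 16.0% and 15.5% of all genes; median 0.05), and 2 and 2, or 1 and 1, without day 5 replicate 1 or 2; with sex as a covariate 2 rose and 1 fell. The 2 fibrillar collagens split, with Col1a1 higher (26.06 and 19.88, then 35.67, 36.97 and 32.19 FPKM; 0.61) and Col3a1 lower (21.73 and 29.18, then 16.96, 12.53 and 16.05 FPKM; -0.74), and the growth factor binding protein gene Igfbp2 fell from 106.1 and 102.74 FPKM to 55.67, 56.09 and 65.01 FPKM (-0.83).

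Choroid plexus and ependyma, the tissues that make and move cerebrospinal fluid, gave the opposite picture to neurons, with 6 of 17 genes lower and 0 higher (35.3% against 15.5%; median -0.40). Transthyretin (Ttr), the thyroid hormone carrier that choroid plexus secretes, measured 750.61 and 707.73 FPKM at day 5 and 393.8, 393.36 and 363.62 FPKM at day 7, a log2 change of -0.93 ± 0.07 (SE; adjusted p = 0.0017). The ages were far apart and each was tight. Kcne2, a potassium channel subunit (3.02 and 2.62, then 1.38, 1.29 and 1.23 FPKM; -1.06), Otx2, the master factor of the plexus (6.59 and 5.96, then 2.53, 4.08 and 3 FPKM; -0.97), and the folate receptor Folr1 (13.92 and 11.89, then 9.19, 8.35 and 9.26 FPKM; -0.52) fell too, as did the cilium gene Tekt1 of ependyma (-0.89). The list of 19 summed to 841.44 and 797.09 FPKM and then 477.08, 481.9 and 446.41 FPKM, with Ttr the most abundant member and none at 0 in all libraries. How much plexus was kept in each brain was not recorded, and its part in the result was not tested. With sex as a covariate 2 members fell, and 1 or 3 without day 5 replicate 1 or 2.

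Markers of blood, muscle and neighbouring glands were checked as signs of other tissue. Of 12 erythroid genes 3 rose and 0 fell (25.0% higher against 16.0% of all genes; median 0.13), and 1 rose without either day 5 library or with sex as a covariate. Hba-a1 (alpha globin) rose from 1050.11 and 1213.07 FPKM to 2113.31, 2102.38 and 2459 FPKM (0.98), but the beta globin Hbb-bs, which is made in the same cells, did not pass the test (1144.43 and 1299.76, then 1184.9, 1229.26 and 1417.29 FPKM; 0.06), nor did Alas2, the first enzyme of erythroid heme synthesis (-0.25). Alpha globin genes are near-identical copies and their reads may be split. Of the 19 muscle genes 7 were abundant enough to test and 1 fell, Tnnt3 (-0.99). Among 14 genes of pituitary, pineal gland and retina 3 were tested and 1 rose: Sag, the arrestin of photoreceptors and pinealocytes, from 2.41 and 2.45 FPKM to 10.51, 9.92 and 8.36 FPKM (1.93). Their part in the other results was not tested. The 4 sex-linked genes tested did not pass the test.

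The machinery of protein synthesis and energy metabolism differed gene by gene. Cytosolic ribosomal protein genes fell in 30 of 79 cases and rose in 5 (38.0% lower against 15.5% of all genes; median -0.20). Without day 5 replicate 1 or 2, 7 or 12 fell and 1 rose, and without day 7 replicate 1, 19 fell and 2 rose. With sex as a covariate 9 fell and 2 rose. Rplp0 measured 816.96 and 789.35 FPKM and then 486.8, 448.09 and 532.8 FPKM (-0.72), and Rps14 1705.09 and 1412.24 FPKM and then 845.89, 690.69 and 900.99 FPKM (-0.94), whereas Rps29 rose from 1423.84 and 1243.51 FPKM to 2744.56, 2541.35 and 3132.94 FPKM (1.07, adjusted p = 0.0034). The most abundant member, Rps27, did not pass the test (0.03). These genes are short and have many processed pseudogenes, and their products are used in fixed proportion, so opposite moves of single members are values to be read with care. The largest fall of the list, that of Rpl28 (753.84 and 738.86, then 223.28, 203.22 and 264.48 FPKM; -1.70), is in a gene that overlaps Ube2s.

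Nuclear genes of the respiratory chain rose in 27 of 74 cases and fell in 8 (36.5% and 10.8% against 16.0% and 15.5% of all genes, median 0.17). Without day 5 replicate 1 or 2 they rose in 9 cases and fell in 1 or 2. With sex as a covariate 16 rose and 4 fell. Uqcrq of complex III went from 110.23 and 85.87 FPKM to 318.71, 321.21 and 263.89 FPKM (1.62, adjusted p = 0.0019), Sdhc of complex II from 197.24 and 208.73 FPKM to 405.54, 393.9 and 438.56 FPKM (1.02), and Cox8a of complex IV from 399.23 and 347.45 FPKM to 703.75, 805.86 and 654.02 FPKM (0.95). Among the members that fell were Sdha, the partner of Sdhc, and Ndufb7 of complex I (-0.58). Sdha measured 134.16 and 145.79 FPKM and then 95.01, 117.11 and 86.23 FPKM (-0.50, adjusted p = 0.030 in limma). The most abundant member, the ATP synthase gene Atp5b, did not pass the test (0.10).

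Of 25 glycolysis and lactate genes 5 rose, Gapdh, Hk2, Ldhb, Slc2a3 and the lactate carrier Slc16a7 among them, and 1, Pfkl, fell (median 0.11), where 16.0% of all genes were higher and 15.5% lower; 0 or 3 rose without day 5 replicate 1 or 2, and 2 with sex as a covariate. Of 14 genes of ketone and fatty acid use, fuels of the suckling brain, 1 rose (Cpt1c, 0.30) and 0 fell. Cholesterol synthesis, which supplies growing membranes, had 3 of 27 genes higher and 5 lower (11.1% and 18.5%, close to the 16.0% and 15.5% of all genes; median -0.03; 0 or 1 lower without day 5 replicate 1 or 2, 2 without day 7 replicate 2, and 1 with sex as a covariate): the HMG-CoA synthase gene Hmgcs1 rose by 0.25, Dhcr7 rose by 0.60, and Fdps and Cyp51 fell by 0.50 and 0.49.

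Of 23 imprinted and growth genes 5 rose and 3 fell (21.7% and 13%, close to the 16.0% and 15.5% of all genes; median 0.00), and 2 or 3 higher and 0 lower without day 5 replicate 1 or 2; with sex as a covariate 4 rose and 0 fell. Among growth factors, the fetal Igf2 fell from 99.66 and 111.53 FPKM to 75.73, 70.89 and 85.88 FPKM (-0.45, adjusted p = 0.018), and the postnatal Igf1 rose from 6.71 and 8.01 FPKM to 12.11, 10.37 and 12.21 FPKM (0.65, adjusted p = 0.011). The cell cycle inhibitor Cdkn1c fell from 11.41 and 10.2 FPKM to 3.5, 4.75 and 6.1 FPKM (-1.19). Of the fetal RNA-binding proteins that regulate Igf2, Igf2bp3 did not pass the test (-0.26) and Igf2bp1 was too low to test (0.41 and 0.52, then 0.12, 0.13 and 0.19 FPKM). Smn1, of which the controls carry 1 functional allele (chr13:100124852-100137690, GRCm38), rose from 9.71 and 8.92 FPKM to 13.56, 14.09 and 16.7 FPKM (0.66 ± 0.11, SE; adjusted p = 0.0085).

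The 12 largest rises among called genes with a mean of 5 FPKM or more and separate ages included Alpk2, an alpha kinase (4.9 and 5.68, then 26.85, 25.24 and 21.4 FPKM; 2.19), Prrt1, an auxiliary subunit of AMPA receptors (3.01 and 2.65, then 14.43, 14.5 and 10.29 FPKM; 2.15), Cdk5r2, an activator of the neuronal kinase Cdk5 (10.43 and 7.85, then 37.48, 35.65 and 32.6 FPKM; 1.95), and Tac2, the neurokinin B precursor (2.12 and 2.34, then 8.68, 6.74 and 6.59 FPKM; 1.66). Cic, a transcriptional repressor, was the tightest of them (45.93 and 44.3, then 147.83, 140.93 and 137.67 FPKM; 1.65 ± 0.06, SE; adjusted p = 0.00043). The glycosyltransferase gene Galnt2 rose by 2.16 with day 5 values that differed from each other (8.76 and 2.96, then 28.15, 23.71 and 18.5 FPKM). Pcdhgc5, Map1a, Sag, Unc13d, Gng13 and Pcsk1n made up the rest. Of the 12 largest falls 7 were in histone genes. Tceanc2 measured 95.84 and 80.51 FPKM and then 7.06, 7.48 and 5.24 FPKM (-3.73), but its value depends on how reads are shared with Tmem59, which it overlaps and which lay between 72.37 and 88.99 FPKM. In the SMA total libraries of day 7 it measured 7.92, 139.65 and 8.2 FPKM, so libraries of 1 group took either level. Mfsd10 (-1.96) varied likewise, with 9.82 and 51.58 FPKM in the SMA libraries of day 5. Gm10800, Tead2 and Rpl28 made up the rest. The authors ran the programs with default settings, which take no account of strand, so reads of overlapping genes cannot be told apart; among the other genes named with values here this holds for Map1a (with Ppip5k1), Syn1 (with Araf and Timp1), Cdc20 (with Elovl1), P2ry12 (with Med12l), Galnt2 and Acta1 (with Gm20388), Gng13 (with Chtf18) and Rps14 (with Ndst1).

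The same ages were compared in SMA brain (total RNA, 2 and 3 libraries), which shares no library with the control comparison but shares its ages. Any difference in how the libraries of the 2 ages were made can enter both comparisons alike. A shared direction therefore cannot tell such a difference from age. In SMA brain 2376 genes (18.1%) passed the adjusted threshold. Of the 4129 genes called in controls 93.5% had the same sign in SMA brain, against 75.9% of all tested genes, and 1613 were called in the same direction in both, which is 39.1% of the control calls and 67.9% of the SMA calls; 0 were called in opposite directions. Slc17a7 rose in SMA brain by 1.11, Map1a by 1.58, Uqcrq by 1.97 and Galnt2 by 3.00. The list medians in SMA brain were 0.41 for presynaptic genes and -0.54 for the cell cycle.

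The difference between the genotypes was tested as an interaction. It passed an unadjusted p of 0.05 for 1382 genes (10.5%) and an adjusted p for 0, the smallest adjusted p being 0.16. The fit held no term for sex, and the sexes were not spread over the ages alike in the genotypes. The median change of the tested sex-linked genes was -3.95 in controls and 0.60 in SMA brain. The part of sex in the differences below was not tested. Choroid plexus genes stood at a median of -0.40 in controls and 0.21 in SMA brain, with 6 of 17 under an unadjusted p of 0.05. Ttr measured 392.94 and 777.75 FPKM in SMA brain at day 5 and 794.26, 710.8 and 620.55 FPKM at day 7, where the 2 ages overlapped, and the interaction of 1.28 had an unadjusted p of 0.0031 in limma (adjusted p = 0.47). Respiratory chain genes stood at 0.17 in controls and 0.63 in SMA brain (36 of 74 under the unadjusted threshold), and ribosomal protein genes at -0.20 and 0.18 (4 of 79). Transcript length moved with these differences: Spearman's rho of log2 change with log length, across genes, was 0.12 in controls and -0.26 in SMA brain. After a correction for length in each library the median differences between genotypes went from 0.47 to 0.12 for the respiratory chain, with 10 of 74 under the unadjusted threshold, and from 0.39 to 0.09 for ribosomal proteins; for choroid plexus it went from 0.47 to 0.34, with 4 of 17. Axon guidance genes stood at 0.18 in controls and -0.08 in SMA brain, with 13 of 45 under the unadjusted threshold and a median difference of -0.22, which was -0.05 after the length correction, with 3 of 45.

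**Figure D5:**
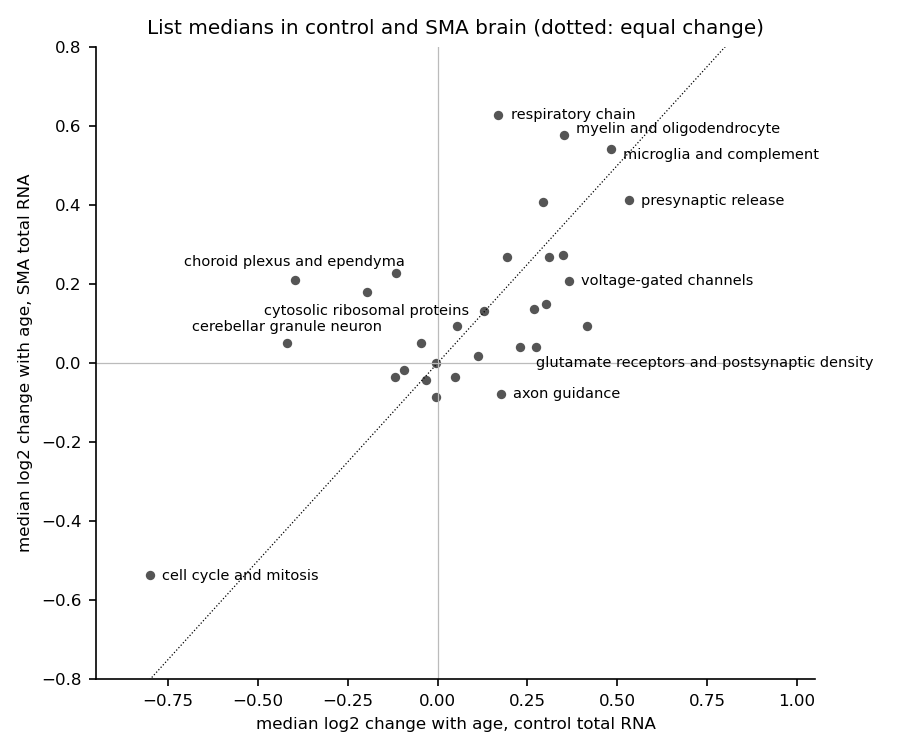
Median log2 change from day 5 to day 7 of the tested members of each gene list in control total RNA (x axis) and SMA total RNA (y axis); each point is a list, those of sex-linked genes and of pituitary, pineal gland and retina being left out, and the dotted line marks equal change. Presynaptic genes (0.53 and 0.41) and cell cycle genes (-0.80 and -0.54) lie in the same direction in both, while choroid plexus genes (-0.40 and 0.21), ribosomal protein genes (-0.20 and 0.18) and axon guidance genes (0.18 and -0.08), among others, lie in opposite directions.

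RNA bound to polysomes, pooled from the ribosome-rich fractions of control gradients and thus a measure of transcripts engaged in translation, gave 4828 calls (36.8%) between the same ages; the labels do not say whether both fractions came from the same brains. Ttr fell there from 976.76 and 956.27 FPKM to 563.95, 508.56 and 455.29 FPKM (-0.93), Cdc20 by 1.26, and Slc17a7 rose by 1.57. Igf2 changed in the other direction, rising by 0.38 on polysomes (56.35 and 64.72, then 86.76, 73.24 and 76.14 FPKM) where it fell by 0.45 in total RNA. The interaction of 0.83 missed the adjusted threshold (adjusted p = 0.054 in limma). The change with age differed between the RNA fractions at an adjusted p of 0.05 for 93 genes (0.708%), of which 62 were listed at 0 in at least 1 control polysomal library. Map1b, Tuba1a, Acta1 and Galnt2 were of this kind, listed at 0 in both day 5 polysomal libraries, and a listed 0 can be a failed estimate.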

How the data were processed

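Total cytoplasmic RNA of control brains was compared between postnatal day 7 (n = 3) and day 5 (n = 2), where n counts libraries, each labelled as from a mouse brain. The authors made the libraries with the TruSeq Stranded Total RNA kit, aligned reads with TopHat2 2.0.14 to GRCm38.p4 and deposited FPKM per gene from Cufflinks 2.2.1, rounded to 2 decimals. Counts were not analysed here, so depth and counting error were not taken into account and p-values measure the spread between libraries. A value of 0 can be a failed estimate. Protein-coding nuclear genes with a mean of 1 FPKM or more and values above 0 in all 5 libraries were fitted as log2(FPKM + 0.1) in limma 3.58.1 (R 4.3.3, empirical Bayes with a trend), with Benjamini-Hochberg adjustment over 13133 genes and a threshold of 0.05. Fold changes are on this log2(FPKM + 0.1) scale, which understates those of low genes. Interactions were fitted over the 10 libraries of both groups. Named genes were the 12 largest called changes in each direction with a mean of 5 FPKM or more and no overlap, the 4 largest called changes and the most abundant member of each list, fixed subunit families and Smn1; other list members were named after their values were seen. Members and gene lists were chosen with earlier results of these data known. Gene coordinates are those of GENCODE for GRCm38, and promoters those of RefSeq for GRCm38.p6. Replicate numbers did not pair the control total libraries of the 2 ages (correlation of deviations 0.009). Whether they pair total with polysomal libraries was not tested, and the fraction interaction was fitted without such pairs. A block on replicate number changed the members under an unadjusted p of 0.05 in that interaction. They went from 0 to 7 for myelin, from 11 to 15 for the postsynaptic list and from 2 to 1 for microglia. The procedure was tested on simulated data. Some genes that the naming rule selected are not reported here.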

Additional observations from a re-analysis of the deposited data

Results flagged for a closer look

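The change of Unc13d with age differed between the RNA fractions of control brain in a direct test. Unc13d (Munc13-4, a priming factor of granule release) rose in total RNA from 8.24 and 6.3 FPKM at day 5 to 27.38, 26.3 and 25.72 FPKM at day 7, a log2 change of 1.86. In polysomal RNA it measured 1.1 and 1.13 FPKM at day 5 and 1.87, 1.27 and 1.36 FPKM at day 7, a log2 change of 0.38 that did not pass the test (adjusted p = 0.20 in limma). The polysomal change minus the total change was -1.48 (adjusted p = 0.013).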

How the results depend on the processing

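All 4129 genes called kept their sign in every alternative that gave them a value, but the alternatives use the libraries that chose these genes, so this is no sign of stability. The number called moved most with the libraries: leaving out 1 library gave 1018 to 4608 calls (676 to 2262 higher, 342 to 2346 lower). The settings with sex as a covariate (1683 calls, 1048 higher and 635 lower) and with the male libraries only (0 calls, 0 higher and 0 lower by adjusted p) were chosen after seeing the data; in both, the cerebellar granule neuron median turned from -0.42 to 0.15, and the cause was not tested. The share of calls that were higher, 50.8% as reported, was 66.0% and 66.4% without day 5 replicate 1 and 2, 62.3% with sex as a covariate, and 43.5% with every library rescaled to the same sum of protein-coding FPKM. With the replicate number as a block, 4518 genes were called (4195 with length correction as well). This block takes day 7 replicate 3 out of the change with age, so its effect sizes are those without that library. Of the genes called, 260 also differed by 1 or more in log2. At an unadjusted p under 0.05 the stage by genotype interaction in total RNA held 1382 genes and the stage by fraction interaction in control 1436. Other settings gave 3048 calls (no filter on low values) to 4261 (quantile normalization). Day 5 with 2 libraries, 2 female libraries at day 7 alone, and depth that FPKM do not carry limit these results.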

Other observations

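Noncoding genes were measured in the same libraries, and their values are given with no test. Small nucleolar RNAs, which guide chemical modification of ribosomal and other RNA, had a median log2 difference of 0.86 between day 7 and day 5 over 85 genes, against 0.04 over the 1529 noncoding genes measured. Snora81 measured 77.7 and 53.81 FPKM at day 5 and 465.12, 443.93 and 425.54 FPKM at day 7. FPKM of genes this short depend strongly on fragment length, and the part of that in the difference was not tested. H19, the imprinted neighbour of Igf2, measured 39.88 and 38.76 FPKM at day 5 and 19.52, 20.24 and 23.06 FPKM at day 7. Meg3, an imprinted neuronal RNA, measured 171.02 and 167.51 FPKM and then 176.67, 196.05 and 125.48 FPKM, and its ages overlapped.

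Genes of the mitochondrial genome, which encode core subunits of the respiratory chain, were left out of the tests. The complex I gene mt-Nd1 measured 1844.77 and 1433.54 FPKM at day 5 and 4880.29, 5509.44 and 4814.73 FPKM at day 7, and mt-Cytb of complex III 1352.13 and 1183.66 FPKM and then 3398.2, 3955.94 and 3472.49 FPKM. The cytochrome oxidase gene mt-Co1, at 3821.25 and 3385.13 FPKM at day 5, was listed at 0 in all 3 day 7 libraries, as were mt-Atp8, mt-Atp6 and mt-Co3. A listed 0 can be a failed estimate, and among these genes it was met at day 7 only, so no fold change is given for mitochondrial genes. Whether their other values were affected in the same way was not tested. Values of mt-Nd3 were 518.11 and 383.87 FPKM at day 5 and 17.38, 14.18 and 13.79 FPKM at day 7, and those of mt-Nd4l 43.28 and 32.63 FPKM and then 6.34, 8.75 and 6.96 FPKM.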
